A study of Mus musculus with 6 samples.

Results

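The effect of a liver X receptor agonist was read from 1 pair of arrays: inflammatory mouse macrophages given GW3965 and LPS, against macrophages given LPS without the agonist. GW3965 is a synthetic agonist of the liver X receptors (LXR), and LPS is lipopolysaccharide, a component of the outer membrane of Gram-negative bacteria that Toll-like receptor signalling detects. The pair takes 2 of the study's 6 arrays and was chosen by the array titles, not by any measured value. Of 8841 named genes on the array, 4622 were bright enough in this pair to be compared, a level filter that asked the brighter array of the pair to reach its own median. All 6 groups shared the same cells, thioglycollate-elicited macrophages of female C57BL/6 mice at 6 weeks of age. Such cells are drawn into the peritoneum by an irritant, so they are recruited rather than resident macrophages. The other 4 groups were No treatment, TSA, TSA + LPS and TSA + GW3965 + LPS, where TSA stands for trichostatin A, which inhibits histone deacetylases. GW3965 was never given without LPS, and the labels state neither doses nor times. Each group had 1 array, so a level or a fold from a single pair carries no error.

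LXR are nuclear receptors that bind oxysterols and pair with retinoid X receptors on DNA, typically at direct repeats of a hexamer with a spacer of a few bases. In macrophages they are known for switching on sterol export and lipid synthesis genes when the cell is loaded with cholesterol. They are also known for holding down part of the inflammatory response to LPS, a property called transrepression. These statements are background, not results of these arrays.

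The cells carried the marker RNAs of macrophages. Of 10 macrophage markers looked for, 8 were on the array and all 8 were measured, with summed levels of 1226.8 on the LPS array and 1258.6 on the GW3965 + LPS array. Levels are the deposited intensities, scaled so that the median probe of every array lay between 0.981 and 0.987. Markers of other cells were partly detected. Of 9 neutrophil markers on the array 1, Mpo, lay under the floor on all 6 arrays and 3 were measured in the pair. Their sums were 52.9 with LPS and 53.3 with GW3965 + LPS, mostly S100a8, and the other 2 measured, Camp and Csf3r, had log2 differences of -0.73 and -0.97. Of 9 T cell markers 2 (Cd3e and Cd8a) were under the floor on all arrays, with sums of 4.38 and 4.55. Of 6 NK cell markers 1 (Prf1) was, with sums of 44.4 and 43.5, and of 9 fibroblast or mesothelial markers 2 (Lum and Msln) were, with sums of 16.6 and 15.7. The sums of B cell markers were 8.21 and 9.25, of mast cell markers 18.4 and 21.7, of eosinophil markers 4.84 and 5.38, of erythroid markers 1.33 and 1.61, and of 2 dendritic cell markers 24.2 and 17.9. The part of such cells in the results was not tested. In RNA of bulk cells, fewer cells of a type and less RNA per cell cannot be told apart.

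GW3965 + LPS differed from LPS alone by a modest number of genes, and more of them were lower than higher. At 2-fold or more, 22 of 4622 genes (0.476%) were higher with the agonist and 58 (1.25%) were lower, 80 in all (1.73%). At 1.5-fold or more, 131 (2.83%) were higher and 332 (7.18%) were lower. The median difference over all measured genes was -0.02 on the log2 scale. Rai2 lay just inside the 2-fold limit with a log2 difference of 1.01, and Tap2 just outside it with -0.9996. The higher genes included the LXR targets Scd2 and Abcg1, and the lower ones the chemokine gene Cxcl10.

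**Figure D1:**
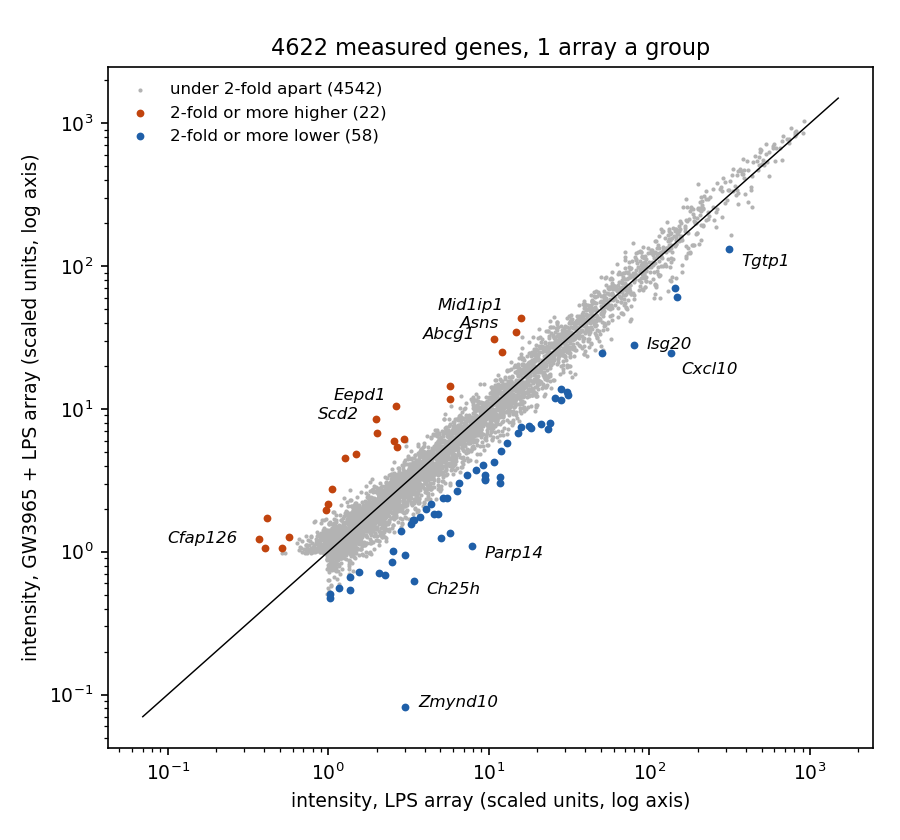
Level of each of the 4622 measured genes on the LPS array (horizontal, scaled intensity, log axis) and on the GW3965 + LPS array (vertical, scaled intensity, log axis), 1 point a gene, with the line of equal levels. The 22 genes at least 2-fold higher (red) and the 58 at least 2-fold lower (blue) lie outside a narrow band, with Scd2, Eepd1 and Abcg1 above it and Cxcl10, Parp14 and Ch25h below it.

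A second pair of arrays, TSA + GW3965 + LPS against TSA + LPS, has the same contrast in cells that also received TSA and shares no array with the first. A linear model (limma) of all 6 arrays carried a term for each of the 3 agents, and its GW3965 term is the mean of both pairs. Of 4806 genes tested, 5 (0.104%) passed an adjusted p of 0.05: 4 rose (0.0832%) and 1 fell (0.0208%). The 4 that rose were Scd2, Abcg1, Eepd1 and Cfap126, and the 1 that fell was Cxcl10. Cfap126 entered the test only through the arrays with the agonist, the only ones on which it reached the array median. At an unadjusted p under 0.05 there were 132 genes (2.75%).

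Scd2, a stearoyl-CoA desaturase that puts the double bond into saturated fatty acids, was the gene with the highest difference in this pair. Its level was 6.6 with No treatment, 1.98 with LPS and 8.47 with GW3965 + LPS. With TSA the level was 2.35, with TSA + LPS 1.24 and with TSA + GW3965 + LPS 6.83. Both arrays with the agonist stood above the other 4 arrays. Scd2 was 4.28-fold higher with the agonist without TSA and 5.52-fold higher with TSA. Its fitted log2 difference was 2.28 ± 0.30 (SE), with a limma adjusted p of 0.0016.

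Abcg1 encodes an ATP-binding cassette transporter that moves cholesterol out of the cell to lipoprotein particles, and it is a standard readout of LXR activity in macrophages. The level was 20.04 with No treatment, 10.8 with LPS and 31.1 with GW3965 + LPS. In the TSA-treated arrays it was 13.2, 5.66 with LPS and 30.6 with GW3965 + LPS. The arrays with the agonist were again the highest of the 6, and the LPS and TSA + LPS arrays the lowest. The difference was 2.89-fold in this pair and 5.41-fold with TSA, and the fitted log2 difference was 1.98 ± 0.27 (SE; limma adjusted p = 0.0016). Without the TSA + GW3965 + LPS array the adjusted p was 0.083.

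Eepd1, a membrane-bound protein of the endonuclease, exonuclease and phosphatase family known as an LXR target in cholesterol efflux, showed the same arrangement. Its level was 9.08 with No treatment, 2.66 with LPS, 10.4 with GW3965 + LPS, 8.87 with TSA, 2.15 with TSA + LPS and 9.41 with TSA + GW3965 + LPS. The arrays with LPS but no agonist stood apart as low, and the agonist arrays lay slightly above the arrays without LPS. The folds were 3.92 and 4.38, and the fitted log2 difference was 2.05 ± 0.26 (SE; limma adjusted p = 0.0016). Over the 17 settings of the fit that were run, the fitted log2 difference was 1.89 to 2.67 for Scd2 and 1.94 to 2.16 for Eepd1. The settings, the 6 that leave out 1 array each included, reuse the same arrays. Those 6 took the variance wholly from the trend over genes.

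Cfap126, a protein of cilia and flagella, was dim throughout, and its call has no support beyond its values, since it passed the level filter only where it was high. Its level was 0.369 with LPS and 1.24 with GW3965 + LPS, a 3.35-fold difference, and 0.519 and 1.5 in the TSA pair, a 2.90-fold difference. The fitted log2 difference was 1.64 ± 0.30 (SE; limma adjusted p = 0.042). Cfap126 passed in 11 of the 16 settings in which it was tested. With the floor at the array median its adjusted p was 0.999, and without the GW3965 + LPS array it was 0.15.

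**Figure D2:**
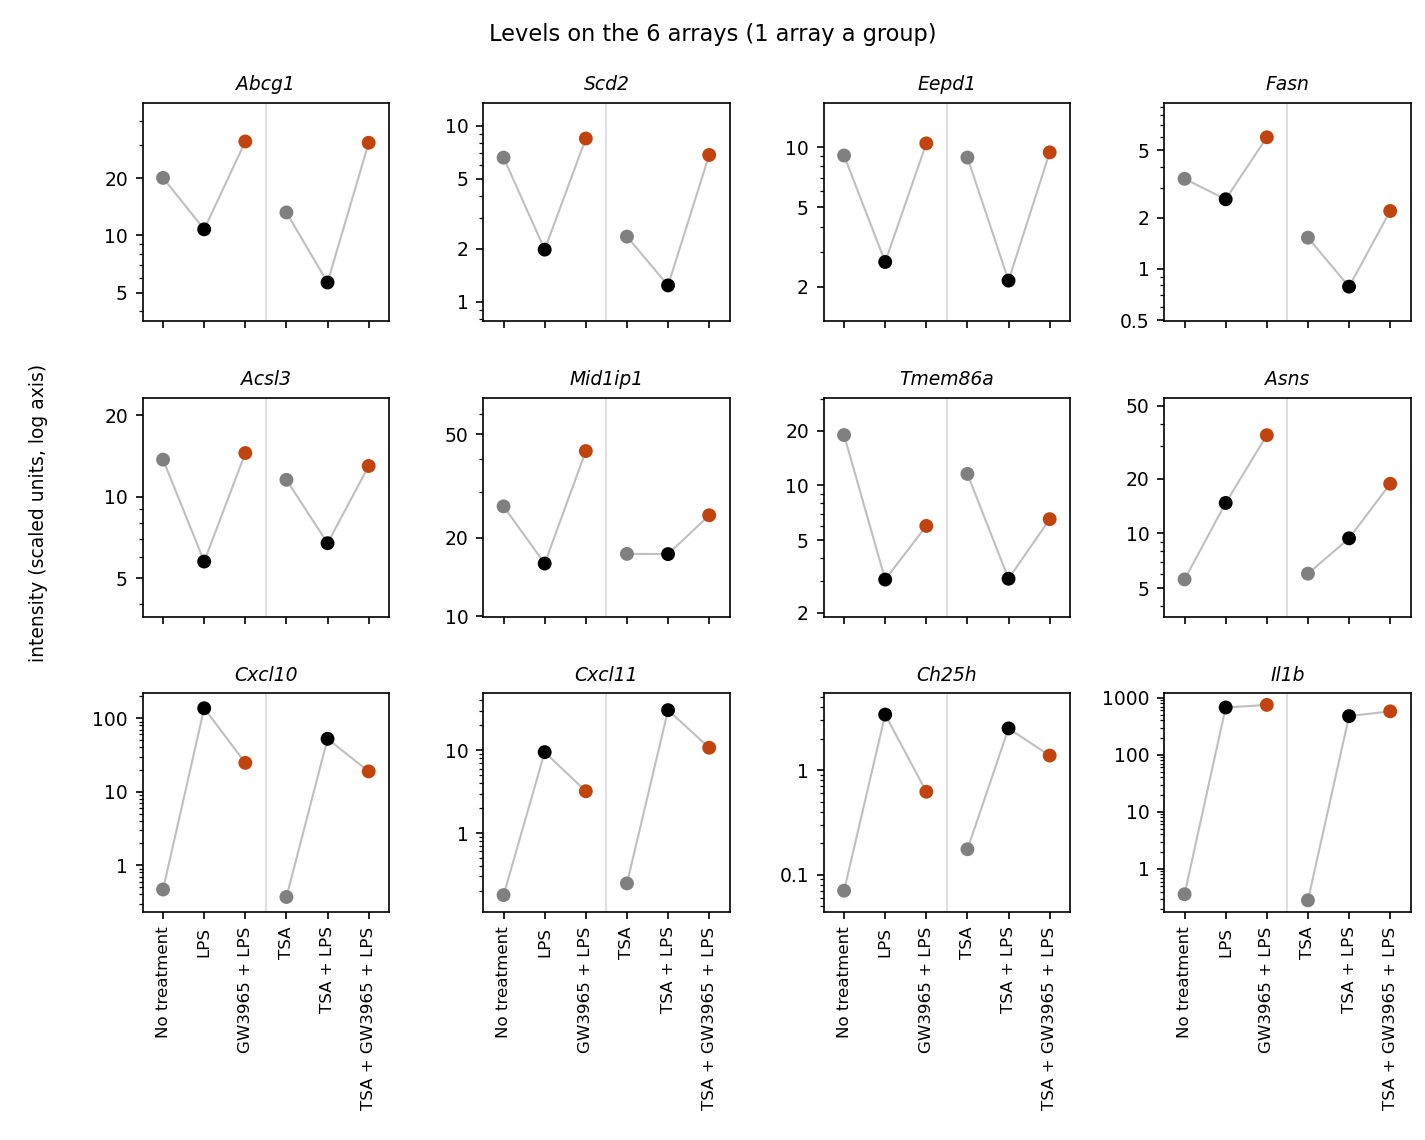
Level of 12 genes on each of the 6 arrays (scaled intensity, log axis, 1 point an array), with arrays without LPS in grey, with LPS in black and with GW3965 + LPS in red, and the 3 TSA arrays on the right of each panel. Abcg1, Scd2, Eepd1, Fasn and Acsl3 are lower on the LPS array than on the GW3965 + LPS array on both sides of their panels, Cxcl10, Cxcl11 and Ch25h are higher, and Il1b differs little.

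In the sterol export and lipoprotein list of LXR targets, Abcg1 stood alone. Over all genes 2.83% were at least 1.5-fold higher and 7.18% lower. Of 15 members on the array 11 were measured, 2 at least 1.5-fold higher and 1 at least 1.5-fold lower, with a median log2 difference of 0.14. limma called 1 of 11, Abcg1, beside 0.104% of all genes tested. Apoc2, an activator of lipoprotein lipase, had a level of 7.23 with LPS and 10.9 with GW3965 + LPS, a log2 difference of 0.60. Apoe, the main apolipoprotein that macrophages secrete, was at 147 and 152, and Lpl, lipoprotein lipase, at 330 and 338. Npc1, the lysosomal cholesterol transporter, had a log2 difference of 0.18 and Pltp, the phospholipid transfer protein, 0.14. Nr1h3, the gene of LXR alpha itself, was at 16.5 with LPS and 10.3 with GW3965 + LPS, a log2 difference of -0.68 that was 0.49 in the TSA pair.

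Abca1, the transporter that loads cholesterol onto lipid-poor apolipoproteins, was too dim on this array to be counted. Its level was 0.276 with LPS and 0.416 with GW3965 + LPS, and 0.349 and 0.727 in the TSA pair. The agonist array was the higher one in both pairs, by 1.51-fold and 2.08-fold, at levels below each array's median. Abcg8, a partner of sterol export in liver and gut, differed by 0.14.

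The fatty acid and phospholipid synthesis list was led by the desaturase Scd2 and by Fasn. Of 11 members on the array 8 were measured, 2 at least 2-fold higher and 1 at least 1.5-fold lower, with a median log2 difference of 0.25. Over all genes 0.476% were at least 2-fold higher and 7.18% at least 1.5-fold lower. Fasn, the fatty acid synthase, had a level of 2.57 with LPS and 5.95 with GW3965 + LPS. In the TSA pair its level was 0.787 and 2.19. These are 2.31-fold and 2.79-fold differences, and the fitted log2 difference was 1.34 ± 0.28 (SE), with a limma adjusted p of 0.12 that missed the threshold. A dimmer Fasn probe, under its array median, read 0.339 and 0.601 in this pair and -0.40 as a log2 difference in the TSA pair. Scd1, the desaturase isoform best known from liver, had a log2 difference of 0.37 in this pair and -1.36 in the TSA pair. Acly, which makes cytosolic acetyl-CoA, had -0.81 and 0.54. Srebf1, the transcription factor through which LXR act on lipid synthesis, was listed under the floor on both arrays of this pair.

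Acsl3, an acyl-CoA synthetase of lipid droplets, was at 5.76 with LPS and 14.5 with GW3965 + LPS, 2.52-fold apart, and at 6.73 and 13 with TSA, 1.93-fold apart (limma adjusted p = 0.17). Mid1ip1, which promotes the polymerisation of acetyl-CoA carboxylase, was at 15.9 and 43.1, 2.7-fold apart, and at 17.3 and 24.4 with TSA. Tmem86a, a lysoplasmalogenase, was at 3.04 and 5.99 and, with TSA, at 3.07 and 6.53. None of the 3 passed limma (adjusted p = 0.17 to 0.54), although each was higher with the agonist in both pairs. For Acsl3 and Tmem86a the LPS arrays were the low ones: No treatment stood at 13.7 and 18.9.

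The upstream sequences of these genes were searched for the repeat that LXR and retinoid X receptors bind, and 4 with a match to the stricter pattern are shown. Abcg1 and Scd2 had no promoter among those given, so they were not searched. The pattern was AGGTCA, 4 free bases and AGGTCA again, with at most 3 mismatches. The stricter pattern, GGTNA, 5 free bases and GGTNA again, had to match in full and is called the relaxed repeat. The patterns overlap, since a perfect repeat also matches the relaxed one. Windows ran from 250 bases before to 50 bases after the gene start, in RefSeq's GRCm38.p6 annotation, on both strands. The elements below lie at chr4:53159947-53159962 (Abca1), chr1:78657713-78657728 (Acsl3), chr11:120824757-120824772 (Fasn) and chr11:60210638-60210653 (Srebf1). Each is read 5′ to 3′ on the strand opposite to its gene, with the hexamers in capitals and the spacer in lower case.
Abca1: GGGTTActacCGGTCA
Fasn: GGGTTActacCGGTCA
Srebf1: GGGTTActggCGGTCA
Acsl3: AGGTTActatGGGTCA

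The Abca1 and Fasn elements were the same 16 letters, 3 mismatches from the pattern, and the Acsl3 element was 2 mismatches away. Counted from the start of the gene, they began at position -67 (Abca1), -225 (Fasn), -182 (Srebf1) and -112 (Acsl3). The 250 bases before the Fasn start, chr11:120824548-120824797 on the minus strand of GRCm38.p6, are shown with that element in capitals, here in the orientation of the gene.
Fasn upstream: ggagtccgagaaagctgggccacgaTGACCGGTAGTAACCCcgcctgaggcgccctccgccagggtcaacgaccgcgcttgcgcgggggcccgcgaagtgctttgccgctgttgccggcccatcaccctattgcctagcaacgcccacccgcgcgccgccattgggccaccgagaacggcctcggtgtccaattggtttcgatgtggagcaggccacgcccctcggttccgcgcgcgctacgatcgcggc

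The relaxed repeat stood in 0.718% of 32851 promoter windows, and the looser pattern with up to 3 mismatches in 21.9%. Counted by gene, the relaxed repeat stood in 0.818% of 27025 genes with a promoter. Of 57 genes in the 3 lists of LXR targets, 40 had a promoter in the table and 5 of these held the relaxed repeat: Abca1, Elovl1, Fasn, Il23r and Srebf1. Among 3770 measured genes with a promoter, 19 (0.504%) held it. Their median log2 difference was 0.13, beside -0.02 over all measured genes. Of the 19, 3 were at least 1.5-fold higher (Acsl3, Fasn and Scand1) and 0 lower, beside 2.83% and 7.18% of all measured genes. The matches describe letters in a window and carry no measurement of binding.

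The third list, LXR targets with other functions in macrophages, was divided. Of 10 measured members 5 were positive and 5 negative, with 2 at least 1.5-fold higher and 3 lower, beside 2.83% and 7.18% of all genes. None of the 10 was called by limma (1 at an unadjusted p under 0.05), beside 0.104% and 2.75% of all genes tested. Arg2, the mitochondrial arginase, was at 5.70 with LPS and 11.7 with GW3965 + LPS, and at 12.3 and 20.5 in the TSA pair. Vegfa, the vascular growth factor, had a log2 difference of 0.62. Cd5l, a scavenger protein that protects macrophages from apoptosis, and Mertk, a receptor for dying cells, each had 0.34. The lower members were Irf8 (-0.86), Myd88 (-0.69) and Rassf1 (-0.64), and these had positive differences in the TSA pair. Among receptors, corepressors and coactivators of LXR, 8 of 9 measured genes were negative, beside 2436 of all 4622 genes. The list's median was -0.27, and none of the 9 passed limma (0 at an unadjusted p under 0.05).

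Genes of the response to amino acid shortage and endoplasmic reticulum stress were also among those higher with the agonist. Of 23 measured members 4 were at least 1.5-fold higher and 0 lower, beside 2.83% and 7.18% of all genes. The list's median log2 difference was 0.18. In the TSA pair 12 of 23 were at least 1.5-fold higher and 0 lower, where the background was 11% of 4682 genes, and the median was 0.59. Asns, asparagine synthetase, was at 14.7 with LPS and 34.5 with GW3965 + LPS, and at 9.41 and 18.7 with TSA. Ddit3, the stress-induced transcription factor also called CHOP, was at 12.1 and 25.1, and at 6.26 and 13.2 with TSA. Both genes were higher with the agonist in both pairs by 1.99-fold to 2.35-fold, and neither passed limma (adjusted p = 0.35 and 0.25). Dnajb9 and Dnajc3, chaperones of the endoplasmic reticulum, had log2 differences of 0.83 and 0.60. Of 24 members tested 8 had an unadjusted limma p under 0.05, beside 2.75% of all genes tested.

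Of the 22 genes at least 2-fold higher, 13 had their lowest level of the 6 arrays on the LPS array and 11 their highest on the GW3965 + LPS array. Choosing genes on these 2 arrays favours such a standing, and it was not counted over all measured genes. Nop56, a nucleolar protein of ribosome assembly, was at 2.02 with LPS, 6.78 with GW3965 + LPS and 4.31 to 4.86 on the other 4 arrays. Rbm22, a splicing factor, was at 1.5 with LPS, 4.85 with GW3965 + LPS and 4.40 to 5.12 on the others. Their log2 differences were 1.75 and 1.69 in this pair and 0.05 and -0.09 in the TSA pair. Ergic2, of the secretory pathway, and Wipi2, of autophagy, had 2.06 and 1.84 in this pair and 0.35 and 0.56 with TSA, and both arrays with the agonist stood above the other 4 for each. Rgs3, a regulator of G protein signalling, and Dnajc24 had 1.37 and 1.39 in this pair and -0.74 and -0.33 with TSA.

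Ribosomal protein genes had small positive differences. Of all 4622 genes 2186 were positive, 2.83% at least 1.5-fold higher and 7.18% lower. Of 38 ribosomal protein genes measured, 37 were positive, 5 were at least 1.5-fold higher and 0 lower, with a median of 0.36. Relative to the LPS array, the median of the same genes was 0.12 higher with No treatment, 0.29 with TSA, 0.60 with TSA + LPS and 0.58 with TSA + GW3965 + LPS. The LPS array was thus the low one for this list against each of the other 5, and in the TSA pair the list's median was -0.11. limma called 0 of 38, and 2 had an unadjusted p under 0.05, beside 0.104% and 2.75% of all genes tested. With cyclic loess scaling the median of this pair was 0.14.

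On the inflammatory side, Cxcl10 was the gene that fell. It encodes a chemokine that draws activated T cells and is induced by interferons and by LPS. The level was 0.467 with No treatment, 137 with LPS and 24.7 with GW3965 + LPS. With TSA it was 0.370, with TSA + LPS 52.4 and with TSA + GW3965 + LPS 18.9. Each agonist array lay below both arrays with LPS and no agonist and far above the arrays without LPS. Cxcl10 was 5.53-fold lower with the agonist in this pair and 2.77-fold lower with TSA. The fitted log2 difference was -1.97 ± 0.29 (SE), with a limma adjusted p of 0.0033, and 0.052 without the GW3965 + LPS array.

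Cxcl11, a neighbouring chemokine with the same receptor, was lower with the agonist in both pairs. Its level was 9.49 with LPS and 3.20 with GW3965 + LPS, 2.97-fold lower, and 30.5 and 10.7 with TSA, 2.85-fold lower. Its fitted log2 difference was -1.54 ± 0.35 (SE; limma adjusted p = 0.17). Ch25h, an interferon-induced enzyme that makes an oxysterol from cholesterol, was at 3.40 with LPS and 0.620 with GW3965 + LPS, 5.48-fold lower, and at 2.51 and 1.38 with TSA, 1.82-fold lower. Its limma adjusted p was 0.15.

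The 250 bases before the Cxcl10 start, chr5:92348890-92349139 on the minus strand of GRCm38.p6 (RefSeq), hold the core of an interferon-stimulated response element at position -213, shown in capitals. The core was searched on both strands as GAAA, 2 free bases and GAAA again, a pattern chosen after the lower genes had been seen, and it does not overlap the LXR patterns by its letters.
Cxcl10 upstream: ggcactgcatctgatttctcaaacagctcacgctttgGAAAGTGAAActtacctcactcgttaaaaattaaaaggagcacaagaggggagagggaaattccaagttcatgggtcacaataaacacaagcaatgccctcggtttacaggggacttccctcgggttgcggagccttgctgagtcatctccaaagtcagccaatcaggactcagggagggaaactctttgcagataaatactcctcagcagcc

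The core stood in 3.44% of promoter windows and in 3.99% of genes with a promoter. Of the measured genes with a promoter, 164 (4.35%) held it, 15 of them on the interferon-stimulated list. Of these 164 genes 30 (18.3%) were at least 1.5-fold lower with the agonist and 6 at least 1.5-fold higher, with a median of -0.09. Over all measured genes, with or without a promoter, 7.18% were lower and 2.83% higher, with a median of -0.02. The pattern was chosen after the lower genes had been seen, and members of the interferon-stimulated list were not set apart. These shares are therefore no independent evidence about the core.

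Inflammatory genes known from other work to be lowered by LXR agonists were mostly a little lower. Of 13 measured members 11 were negative, 4 were at least 1.5-fold lower and 0 higher, with a median log2 difference of -0.55. Over all genes the median was -0.02, and 7.18% were at least 1.5-fold lower and 2.83% higher. In the TSA pair 6 of 13 were at least 1.5-fold lower, where the background was 5.79%, with a median of -0.30. limma called 1 of 13, Cxcl10, and 5 had an unadjusted p under 0.05, beside 0.104% and 2.75% of all genes tested. The list was built from published LXR biology and with earlier results of these arrays known, so it is no independent evidence of direction.

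Members of that list differed among themselves. Ccl7, a monocyte chemokine, was at 159 with LPS and 91 with GW3965 + LPS, and at 214 and 119 with TSA. Nos2, the inducible nitric oxide synthase, was at 5.17 and 3.15, and at 4.98 and 2.33 with TSA. Ccl2, the main monocyte chemoattractant, had log2 differences of -0.55 and -0.66 in the pairs without and with TSA, Il6 had -0.52 and -0.75, and Cxcl9 had -0.55 and -1.08. These 5 genes were lower with the agonist in both pairs, and none passed limma (adjusted p = 0.61 to 0.9998).

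Ptgs2, the inducible cyclooxygenase, and Tnf did not keep a direction. Ptgs2 was at 3.56 with LPS and 1.89 with GW3965 + LPS but at 0.905 and 1.55 in the TSA pair. Tnf had log2 differences of -0.56 and 0.37. Il1b, which encodes the pyrogenic cytokine interleukin 1 beta, was at 674 with LPS and 748 with GW3965 + LPS, and at 475 and 576 with TSA, so it was not lower in either pair. Csf3, a neutrophil growth factor, differed by 0.12 and Ccl4 by -0.17. Mmp9, a matrix protease often used as a readout of LXR transrepression, was listed near or under the floor on both arrays.

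Across all measured cytokines and chemokines, 24 of 34 were negative, 8 at least 1.5-fold lower and 1 at least 1.5-fold higher, with a median of -0.17. Of all 4622 genes 2436 were negative, 7.18% at least 1.5-fold lower and 2.83% at least 1.5-fold higher. Beside Cxcl10 and Cxcl11 the largest differences were those of Ccl12, a monocyte chemokine, at 9.42 and 3.43, and Edn1, the vasoconstrictor endothelin, at 31.3 and 12.6. Both stood lower in the TSA pair as well, with log2 differences of -0.64 and -0.35. limma called 1 of 34 and 9 had an unadjusted p under 0.05, beside 0.104% and 2.75% of all genes tested.

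Interferon-stimulated genes, the antiviral genes that type I and type II interferons switch on, had the lowest median of the 24 lists in this pair. Of 33 measured members all 33 were negative, beside 2436 of all 4622 genes, with a median log2 difference of -0.81. At least 1.5-fold lower were 26, against a background of 7.18%, and at least 2-fold lower 8, against 1.25%. Cmpk2, a mitochondrial nucleotide kinase, was at 11.8 with LPS and 3.01 with GW3965 + LPS. Isg20, an exonuclease against viral RNA, was at 80.4 and 28.2. Gbp4 and Tgtp1, interferon-induced GTPases, were at 23.9 and 7.92, and at 314 and 132. Irf1, a transcription factor of the pathway, differed least, by -0.03.

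The same genes did not show this shift in the TSA pair, where the median over 34 members was -0.07, with 4 at least 1.5-fold higher and 3 at least 1.5-fold lower. Cmpk2 had -0.40 there, Isg20 -0.68, Tgtp1 -0.91 and Gbp4 -0.07. limma called 0 of 33 for GW3965, with 8 at an unadjusted p under 0.05, beside 0.104% and 2.75% of all genes tested. The difference between the pairs was not tested as such. The GW3965 by TSA term of the wider model also takes the TSA effect from the arrays without LPS. It passed for 1 of 33, Parp14, with 4 at an unadjusted p under 0.05, beside 0.0208% and 2.91% of all genes tested. The median of the interferon-stimulated list was highest on the LPS array. Relative to that array it was -0.81 with GW3965 + LPS, -0.79 with TSA + LPS and -0.71 with TSA + GW3965 + LPS. With 1 array a group, an effect of the agonist and a property of the LPS array cannot be told apart for this list.

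**Figure D3:**
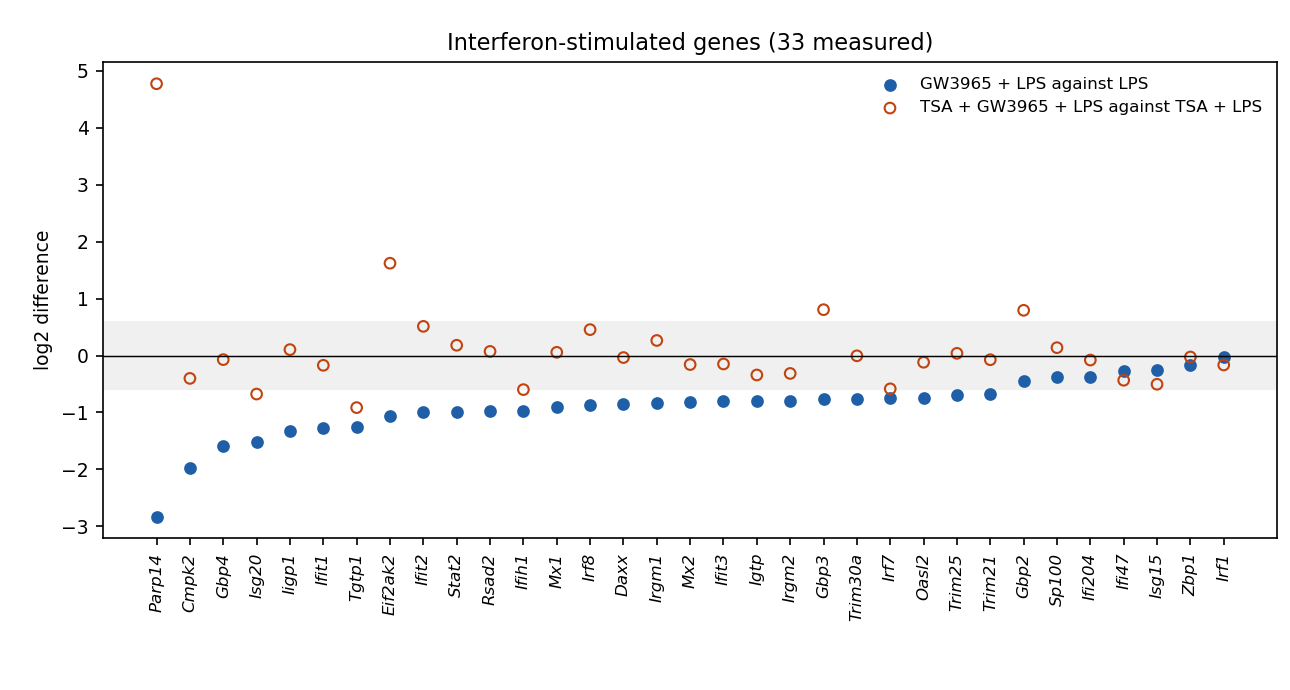
Log2 difference of the 33 measured interferon-stimulated genes in GW3965 + LPS against LPS (filled, blue) and in TSA + GW3965 + LPS against TSA + LPS (open, red), ordered by the first, with differences under 1.5-fold shaded. All 33 blue points lie below 0, while the red points scatter around 0, with Parp14 far above.

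Other genes among the lowest shared this arrangement. Tlr3, the sensor of double-stranded RNA, was at 5.75 with LPS and 1.36 with GW3965 + LPS, and at 1.87 and 2.64 with TSA. Slfn4, an interferon-induced gene of myeloid cells, was at 11.8 and 3.33, and at 6.32 and 7.45 with TSA. Uba7, the enzyme that activates the ubiquitin-like protein ISG15, was at 2.25 and 0.682, and at 0.579 and 0.606 with TSA. Each stood highest of the 6 arrays on the LPS array, and the log2 differences in the TSA pair were 0.50, 0.24 and 0.06.

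Further genes outside the interferon list also had their highest level on the LPS array. Ass1, argininosuccinate synthase, was at 23.4 and 7.19, Ms4a4b at 5.03 and 1.25, and Kdr, a receptor for vascular growth factors, at 2.99 and 0.945. Of the 58 genes at least 2-fold lower, 53 had their highest level of the 6 arrays on the LPS array. Of the 12 lowest genes named here 11 did, with Cxcl11 as the exception. These genes were chosen for a high level on the LPS array against GW3965 + LPS, so this standing is partly built in. It was not counted over all measured genes. In the TSA pair 29 of the 58 were lower and 29 higher. Of the 58, 10 (17.2%) were at least 1.5-fold lower there, beside 4.93% of all genes measured in this pair.

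The difference of LPS-induced genes in GW3965 + LPS against LPS was read on genes chosen without either array of the pair. It still rests on the single LPS array, so an effect of the agonist and a property of that array cannot be told apart here either. TSA + LPS against TSA gave 158 genes with at least 4-fold induction, of which 155 were measured here. Their median log2 difference was -0.38, beside -0.02 over all genes, and 54 (34.8%) were at least 1.5-fold lower and 4 (2.58%) at least 1.5-fold higher, beside 7.18% and 2.83% of all genes. At 2-fold or more 19 (12.3%) were lower and 2 (1.29%) higher, beside 1.25% and 0.476% of all measured genes. Split by the lists, the 26 on the interferon-stimulated list had a median of -0.81, with 21 at least 1.5-fold lower. The 23 cytokines and chemokines had a median of -0.23, with 6 at least 1.5-fold lower and 1 higher. The 106 in neither list had a median of -0.26, with 27 at least 1.5-fold lower and 3 higher. Of 19 measured genes that were at least 4-fold lower in TSA + LPS than in TSA, 4 (21.1%) were at least 1.5-fold higher with the agonist and 1 was lower.

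Signalling and antigen presentation lists had negative medians of smaller size, and the 7.18% applies to each of their counts. NF-kB, AP-1 and early response genes had a median of -0.22, with 9 of 26 at least 1.5-fold lower, beside 7.18% of all genes, and 0 higher. Among them Socs1, a feedback inhibitor of cytokine signalling, was at 11.5 and 6.00, and at 6.32 and 2.67 with TSA. The MHC and antigen presentation list had a median of -0.34 with 4 of 21 at least 1.5-fold lower. Its farthest members were Tap1 and Tap2, the peptide transporter of the endoplasmic reticulum, with -1.24 and -0.9996, and with 0.55 and 0.24 in the TSA pair. Toll-like receptor signalling genes had a median of -0.26, with 3 of 17 at least 1.5-fold lower and 1 higher.

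Lists of lipid handling outside the LXR targets were near the median of all genes or slightly above. PPAR targets, lipid droplet and fatty acid oxidation genes had a median of 0.23. Of 18 measured 2 were at least 1.5-fold higher and 1 lower, beside 2.83% and 7.18% of all genes. Hilpda, a lipid droplet protein, was at 50.3 and 84.2, and Mgll, the monoacylglycerol lipase, at 2.29 and 1.44. The cholesterol synthesis and uptake list, which also holds the oxysterol enzyme Ch25h, had a median of -0.11. Of 12 measured members 11 were negative, beside 2436 of all 4622 genes, and only Ch25h was at least 1.5-fold apart. Oxidative phosphorylation genes had a median of 0.20. Housekeeping genes had a median of -0.05 with 0 of 13 at least 1.5-fold apart. Among these signalling, antigen presentation, lipid, oxidative phosphorylation and housekeeping lists limma called 0 members for GW3965, with 0 to 3 a list at an unadjusted p under 0.05. Over all genes tested the shares were 0.104% and 2.75%.

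**Figure D4:**
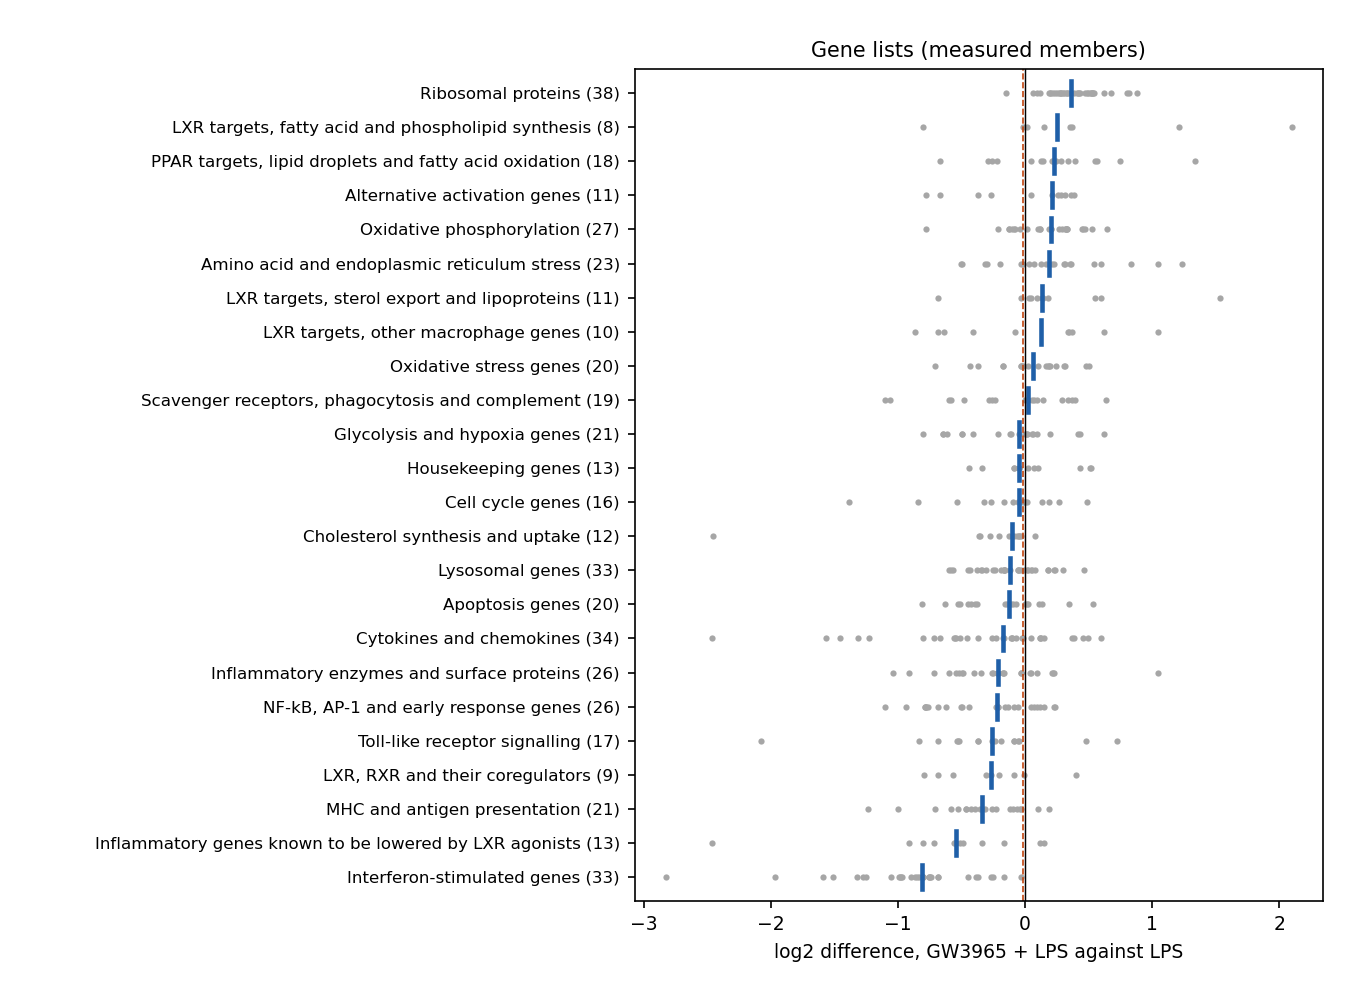
Log2 difference in GW3965 + LPS against LPS of every measured member (grey points) of 24 gene lists, with the number measured in brackets, the list's median (blue bar) and the median of all 4622 genes (dashed line, -0.02). The interferon-stimulated list has the lowest median (-0.81) and the ribosomal protein list the highest (0.36), while Scd2, Abcg1 and Fasn are single points far to the right of their lists' medians.

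Set side by side, the pairs without and with TSA shared a small part of their genes. Over 4425 genes measured in both, the log2 differences had a Pearson correlation of -0.13 and a Spearman correlation of -0.19, across genes that are not independent, with SDs of 0.384 and 0.448. Of 124 genes at least 1.5-fold higher in this pair and 486 in the TSA pair, 23 were shared, which is 18.5% of the first and 4.73% of the second, beside 11% and 2.8% of all 4425 genes. Of 286 and 223 genes at least 1.5-fold lower, 23 were shared, 8.04% and 10.3%, beside 5.04% and 6.46% of all 4425 genes. Of the 22 genes at least 2-fold higher here, 10 (45.5%) were at least 1.5-fold higher with TSA, beside 11.1% of all genes measured in this pair. The shared higher genes with the largest smaller difference were Scd2, Eepd1, Cfap126, Abcg1, Fasn, Ddit3, Asns and Tmem86a. On the low side they were Cxcl11, Cxcl10, Lhx4, Socs1, Tgtp1, Ch25h, Gbp8 and Klrk1.

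**Figure D5:**
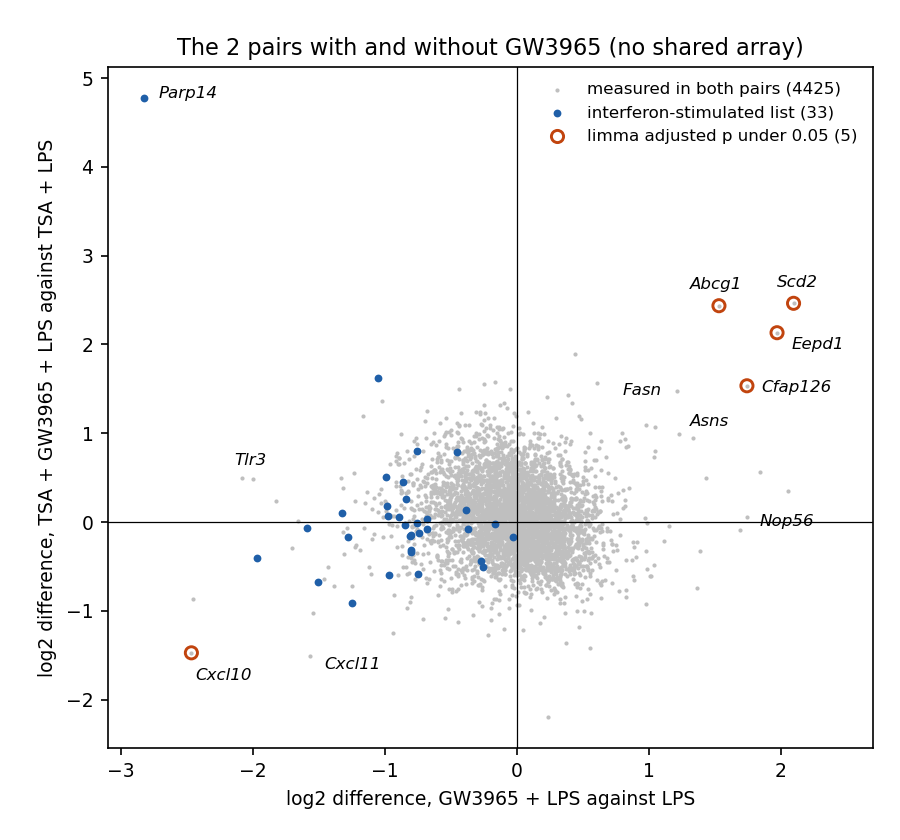
Log2 difference in GW3965 + LPS against LPS (horizontal) and in TSA + GW3965 + LPS against TSA + LPS (vertical) of the 4425 genes measured in both pairs, with the interferon-stimulated list in blue and the 5 genes called by limma circled. Scd2, Eepd1, Abcg1 and Cfap126 lie farthest to the upper right, with Fasn nearer the centre, Cxcl10 and Cxcl11 lie at the lower left, and the cloud of all genes has no positive slope (Pearson correlation -0.13).

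A GW3965 by TSA term was added to the model to ask whether the agonist's difference depended on TSA. The term assumes 1 effect of TSA with and without LPS, so its value is not the plain difference between the pairs, for which no residual degrees of freedom remain. Of 4806 genes 1 (0.0208%) passed, Parp14, and 140 (2.91%) had an unadjusted p under 0.05. Parp14, an interferon-induced ADP-ribosyltransferase, was at 0.564 with No treatment, 7.83 with LPS and 1.10 with GW3965 + LPS. It was at 0.0477 with TSA, 0.0878 with TSA + LPS and 6.70 with TSA + GW3965 + LPS. The agonist array was 7.10-fold lower in the first pair and at least 27.4-fold higher in the second, where TSA and TSA + LPS lay under the floor. The log2 differences of the pairs thus lay at least 7.602 apart. The fitted term was 5.76 ± 0.56 (SE). This fit leaves 1 residual degree of freedom and took the variance wholly from the trend over genes. The SE and the pass thus hold no spread of Parp14's own values. The term is approximate and no bound, since 2 arrays enter at the floor. It was 6.97 with the floor at the 10th percentile and 4.10 with the floor at the median. For Abcg1, Scd2 and Cxcl10 the pairs differed by 0.90, 0.37 and 0.996, and the fitted term was 0.74 ± 0.57, 0.77 ± 0.57 and 0.47 ± 0.58 (SE), with an unadjusted limma p of 0.19, 0.18 and 0.41.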

How the data were processed

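RNA of 1 sample a group was hybridised to 6 single-colour biotin arrays. Per the labels' protocols, 0.5 ug of total RNA was primed with oligo-dT and amplified by in vitro transcription. The values the authors deposited are linear intensity, 10076 probes on each array. Medians of 0.981 to 0.987 show that arrays had been scaled. The method is not given in the sources used here.

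Of the probes 8983 carried 1 symbol, for 8841 genes. For 138 genes with more than 1 probe the brightest was used. Each array was floored at its 25th percentile (0.198 to 0.245) and log2-transformed. A difference that uses the floor is given as "at least". Size rules of 2-fold and 1.5-fold have no test.

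limma 3.58.1 in R 4.3.3 was fitted to 4806 genes at or above the median on at least 2 arrays, with additive LPS, GW3965 and TSA terms, an intensity trend, 2 residual and 15.1 prior degrees of freedom, and two-sided Benjamini-Hochberg p-values. "Rose" and "fell" refer to an adjusted p under 0.05. No group has replicates, so the residual of this fit is the departure of the arrays from additive terms, any interaction of the agents included. The p-values are measured against that departure and hold no spread among replicates. The labels do not say that arrays came from separate cultures, so technical differences are not set apart. The number of arrays limits the precision. The fit was also run on arrays simulated from the additive model with independent noise. Such arrays hold no interaction of the agents, so the run cannot show how sound the calls are where agents interact.

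Members, the 24 gene lists and the 10 marker lists (775 symbols, 589 on the array) were chosen with earlier results of these data known. The genes named are the 12 highest and 12 lowest with both arrays above the floor; those called by limma; the 8 in each direction with the largest smaller difference of the pairs; measured members of the lists of LXR targets and LXR-lowered genes; up to 4 members of every other list farthest from 0; and 20 genes by name, of which Mylip and Nr1h2 are not analysed here. Promoters came from a RefSeq table (GRCm38.p6). Alternatives covered scaling, floor, filter, probes, thresholds, the model and leaving out each array. Figures used matplotlib 3.10.9 in Python 3.11.15.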

Additional observations from a re-analysis of the deposited data

Results flagged for a closer look

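Parp14, an interferon-induced ADP-ribosyltransferase, was lower with GW3965 without TSA and higher with TSA, and it was the 1 gene of 4806 that passed the test of the GW3965 by TSA term. The fitted term was 5.76 on the log2 scale, while the differences of the pairs themselves lay at least 7.602 apart. That test took its variance wholly from the trend over genes. The fitted value rests on 1 probe and on the TSA and TSA + LPS arrays, where that probe lay under the floor. Its size therefore moves with the floor: 6.97 with a floor at the 10th percentile and 4.10 with a floor at the median. The levels of 0.0477 and 0.0878 on those arrays stood below 0.564 with No treatment. The part of the probe or of these arrays in the result was not tested.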

How the results depend on the processing

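The count of 80 genes at least 2-fold apart was 64 to 104 under the other scalings, floors, filters and probe rules, 463 at 1.5-fold and 19 at 3-fold. Without a filter on low values the median of all genes was 0.13. limma's count of 5 genes was 4 or 5 under 7 settings (quantile, cyclic loess, both floors, the 65th percentile filter, mean over probes, no trend). It was 20 with no filter, 17 with only the 4 arrays with LPS and 18 with an LPS by TSA term, and ranged from 6 to 57 when 1 array was left out: 17 without No treatment, 15 without TSA, 53 without LPS, 57 without TSA + LPS, 6 without GW3965 + LPS and 10 without TSA + GW3965 + LPS. Fits that leave 1 residual degree of freedom, and the one with no filter, took the variance wholly from the trend over genes, and in fits that leave out an array the lone arrays are assumed to vary like the rest. The correlation of the pairs was -0.21 with no filter and -0.057 with the 65th percentile filter. The share of LPS-induced genes at least 1.5-fold lower was 24.1% with induction set at 2-fold. The interaction count was 2 with a floor at the 10th percentile, 2 with a floor at the median and 3 with no filter, alternatives chosen after seeing the data. Among list medians that changed sign, that of LXR targets with other functions was -0.41 with the 65th percentile filter. With no filter that of LXR coregulators was 0.015, that of cell cycle genes 0.15 and that of neutrophil markers 0.058, the last against -0.73 in the main setting. That of scavenger receptors, phagocytosis and complement was -0.088 with cyclic loess. Other medians kept their sign but moved. With the 65th percentile filter fatty acid and phospholipid synthesis was at 0.78, Toll-like receptor signalling at -0.37, alternative activation at 0.045 and macrophage markers at -0.27. With cyclic loess oxidative phosphorylation was at 0.074, ribosomal proteins at 0.14, housekeeping genes at -0.15 and sterol export at 0.064. Neutrophil markers were at -0.24 with the floor at the median. The cause of these shifts was not tested. Of the named genes' differences 924 of 957 kept their direction and their side of 1.5-fold, and 0 reversed. No paired analysis was possible because every group had 1 array and replicate number 1.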

Other observations

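Of 1092 probes with no gene symbol here, 530 were measured in GW3965 + LPS against LPS. At 2-fold or more 10 of them (1.89%) were apart, 4 higher and 6 lower, beside 1.73% of named genes. Zmynd10, a ciliary assembly factor outside the rule for named genes and singled out after its values were seen, was at 3.03 with LPS and 0.0823 with GW3965 + LPS, under the floor, so it was at least 13.6-fold lower. It was also under the floor on the TSA + LPS and TSA + GW3965 + LPS arrays, and at 1.84 with No treatment and 1.32 with TSA.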
